A study of Drosophila melanogaster with 3 samples.

Results

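MicroRNA genes were taken as every gene of the Ensembl fly annotation (BDGP6.54, release 115, Release 6 coordinates, which are those of dm6) whose symbol starts with mir-. The annotation now writes bantam as mir-ban and let-7 as mir-let7, so these are included. There were 262 such genes among 17873 genes other than transposon insertions, and 260 of them lay on the 6 chromosomes with peaks. The other 2, both copies of mir-10404 in ribosomal DNA, were kept in the counts and have no peak. The peaks came from chromatin immunoprecipitation and sequencing (ChIP-seq) of Jarid2 in whole *Drosophila melanogaster* embryos, male and female pooled, at an age of 0 to 24 h. They were of a transgenic line that stably expresses Jarid2 with green fluorescent protein (GFP) at its C-terminal end, and chromatin was pulled down with an antibody against GFP. The 3 biological replicates form 1 group, so there was no second condition, and no library of flies without GFP was analysed here.

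A microRNA is a short RNA that Drosha in the nucleus and Dicer-1 in the cytoplasm cut from a hairpin in a longer primary transcript. It is then loaded into an Argonaute protein. Its seed, bases 2 to 8 counted from the 5′ end, pairs with target messenger RNAs and lowers their output. A microRNA can have a transcript of its own, which the annotation lists as a long non-coding RNA, or can lie inside a protein-coding gene and be made from that gene's transcript, so its promoter may be far from the hairpin. Jarid2 is a DNA-binding partner of Polycomb repressive complex 2, which methylates lysine 27 of histone H3 at developmental genes in flies and mammals.

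The mature sequences below are those on which the later results turn, namely microRNAs with a peak at the start of their host, strong or weak, relatives that share their seed, and let-7 as a well-known microRNA without such a peak. They were read from the RefSeq annotation and Release 6 genome (dm6), 5′ to 3′, with the seed in capitals and with the position and strand of the mature RNA in brackets.
mir-279-3p (chr3R:29215651-29215672, +): uGACUAGAuccacacucauuaa
mir-996-3p (chr3R:29217244-29217265, +): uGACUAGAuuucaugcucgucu
mir-2a-1-3p (chr2L:19569902-19569924, -): uAUCACAGccagcuuugaugagc
mir-2b-1-3p (chr2L:8258623-8258645, -): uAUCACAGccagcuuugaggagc
mir-13a-3p (chr3R:15417548-15417569, -): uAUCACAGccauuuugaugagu
mir-11-3p (chr3R:21622504-21622524, -): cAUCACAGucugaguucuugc
mir-92a-3p (chr3R:25646560-25646581, +): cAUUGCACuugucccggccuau
mir-92b-3p (chr3R:25651457-25651478, +): aAUUGCACuagucccggccugc
mir-9a-5p (chr3L:19565140-19565162, +): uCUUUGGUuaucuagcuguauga
mir-ban-3p (chr3L:642259-642281, +): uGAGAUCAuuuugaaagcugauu
mir-10-5p (chr3R:6809553-6809574, -): aCCCUGUAgauccgaauuuguu
mir-276a-3p (chr3L:10365281-10365302, +): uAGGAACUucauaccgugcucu
mir-124-3p (chr2L:17566426-17566448, +): uAAGGCACgcggugaaugccaag
mir-let7-5p (chr2L:18472044-18472064, +): uGAGGUAGuagguuguauagu
The seed of mir-279 is also that of mir-996 and of mir-286, a member of the early zygotic cluster. The seed of mir-2a-1 is carried by 14 microRNA genes on either arm, and 9 of these 14 lie in a host whose start held a peak, as described below for the K box family.

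Every replicate had a list of 30000 peaks called with a permissive threshold. A list of 5464 peaks, selected over the replicates by their irreproducible discovery rate, is called reproducible here. A peak's position is its summit. Its strength is its rank by the authors' signal value within its own list, rank 1 being the strongest, since signal was not scaled alike between lists. For each reproducible summit the nearest summit within 200 bp was looked up in every replicate, and the replicate ranks below are ranks among that replicate's 30000 peaks. The reproducible list was made from the same replicates, so its presence in them is no independent evidence. The lists hold no read numbers, so the depth of each library is unknown, and whole embryos do not show in which cells a peak arose.

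MicroRNA hairpins themselves were seldom near a Jarid2 summit. A reproducible summit lay within 1 kb of 27 of the 262 microRNA genes (10.3%), against 27.3% of the 17423 other genes on the same chromosomes. Among equal numbers of strongest peaks the count was 26 in replicate 1, 30 in replicate 2 and 27 in replicate 3, a share of 10.6% ± 0.795 (SD, n = 3), beside 28.7%, 26.5% and 28.4% of other genes in the same replicates. The range over replicates was therefore well below the gap to other genes. A gene is a larger target when it is longer, however, and hairpin genes have a median length of 92 bp. Of other short genes, 7.24% of 290 tRNA genes (median 73 bp) and 20.4% of 269 snoRNA genes (median 134 bp) had a summit within 1 kb. So did 7.30% of all genome positions, each taken as the start of a 92 bp interval. The microRNA share exceeded that of genome positions by 3.34 ± 0.856 percentage points and that of tRNA genes by 3.28 ± 1.09 (mean over replicates ± SD, n = 3). The microRNA share was below that of snoRNA genes in all 3 replicates. These SDs measure the spread between replicates and not the small number of genes. In the reproducible list the counts were 27 of 260 microRNA and 21 of 290 tRNA genes on these chromosomes.

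**Figure D1:**
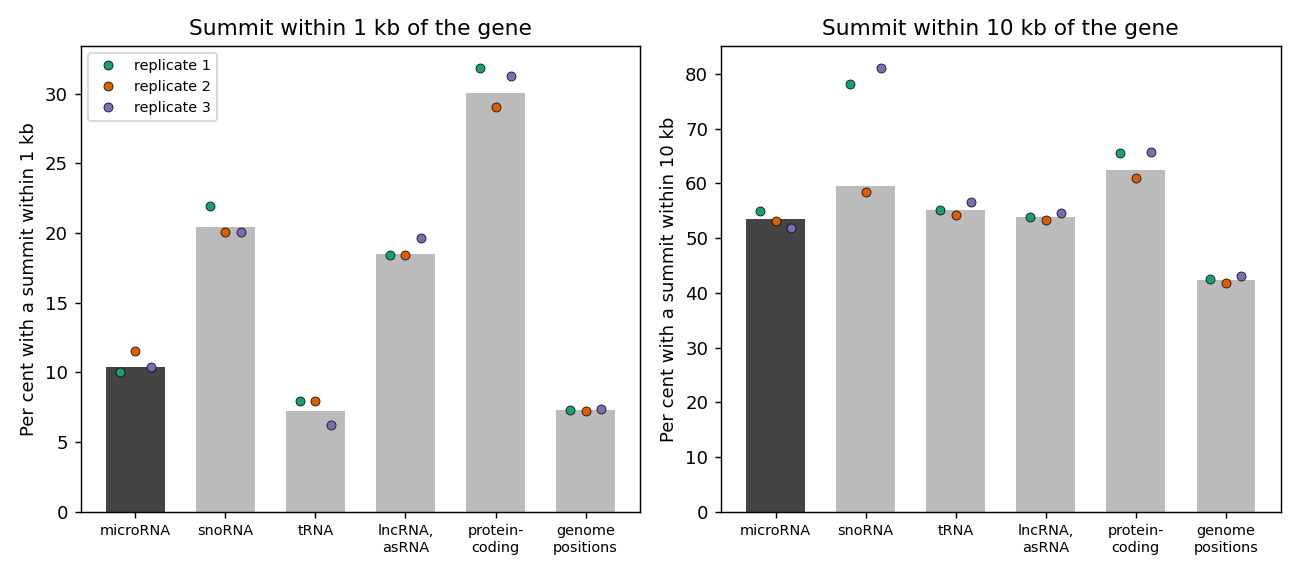
Bars give the per cent of genes with a reproducible summit within 1 kb (left) and 10 kb (right) of the gene, for microRNA genes (260 on the chromosomes used) and 4 other gene classes, and for genome positions. Points are the 3 replicates, each with its 5464 strongest peaks; at 1 kb microRNA genes stand at 10, 11.5 and 10.4%, below snoRNA and protein-coding genes in every replicate.

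Within 10 kb, 139 microRNA genes (53.1%) had a reproducible summit, against 60.4% of other genes, 55.2% of tRNA genes, 59.5% of snoRNA genes and 42.4% of genome positions. The snoRNA share varied most between replicates, at 78.1%, 58.4% and 81.0%. The microRNA replicate counts were 143, 138 and 135, or 52.9% ± 1.54 (SD, n = 3), beside 63.2%, 59.1% and 63.5% of other genes in replicates 1, 2 and 3. The median microRNA gene lay 8746 bp from its nearest reproducible summit, against 8445 bp for tRNA genes, 4942 bp for snoRNA genes and 5636 bp for protein-coding genes. The curve of distances for microRNA genes ran close to that of tRNA genes, 35.8% being reached by 5 kb and 74.6% by 20 kb. On the X chromosome 22 of 58 microRNA genes had a summit within 10 kb, against 37 of 58 on chromosome arm 3R, 32 of 56 on 2L, 31 of 55 on 2R and 16 of 31 on 3L. The X held 847 of the 5464 peaks, fewer than each of those 4 arms, which held 1051 to 1259. Within 1 kb the X share was 6 of 58 (10.3%), the same as over all microRNA genes. The largest group of neighbouring microRNA genes, 12 genes each within 10 kb of the next, lies on the X, and such genes are not independent. The share of other genes was not counted by chromosome.

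**Figure D2:**
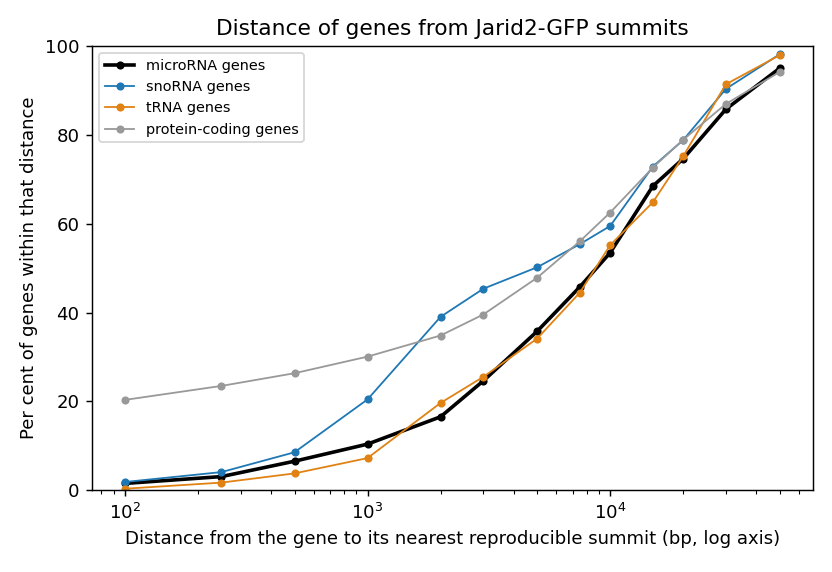
Cumulative per cent of genes (vertical axis) whose nearest reproducible summit lies within a given distance in bp (log axis), for microRNA, snoRNA, tRNA and protein-coding genes. The microRNA curve follows the tRNA curve and crosses the protein-coding curve only between 30000 and 50000 bp, with medians of 8746 bp for microRNA genes and 5636 bp for protein-coding genes.

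Where a summit did lie within 1 kb of a hairpin, it was more often in the stronger part of the list than in the weaker. The strongest summit near each of the 27 genes had a median rank of 1713 of 5464, against a median of 2732.5 for all reproducible peaks, and 21 of the 27 ranked above that middle. The 27 genes had 26 distinct strongest summits, because mir-303 and mir-982 share one, and 6 genes had 2 or more summits within 1 kb. Taking the strongest of several summits favours a strong rank, and the strongest summits near other genes were not ranked for comparison. In 20 genes the strongest summit lay upstream of the 5′ end of the hairpin, and in 7 it lay inside or downstream. Of the 27, 21 were matched among the 5464 strongest peaks of all 3 replicates, 5 in 2 replicates and 1 in 1 replicate, and all 27 were matched in the 3 whole permissive lists. Of all 5464 reproducible peaks, 3729 (68.2%) were matched among the strongest peaks of all 3 replicates.

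Most of these near summits sat at a gene start other than the hairpin. In 16 of 27 genes the nearest annotated start was that of a protein-coding gene within 1 kb, and in 11 of these it was a start of the gene that hosts the hairpin on the same strand. In 5 further genes, mir-14, mir-8, mir-282, mir-279 and mir-375, the summit lay within 1 kb of the start of a non-coding host. The strongest was beside mir-4968 (chr3L:11552539-11552693, minus strand), outside the exons of Mob2, which encodes a kinase activator. That summit, 28 bp from a Mob2 start and 391 bp upstream of the hairpin, ranked 230 in the reproducible list and 233, 250 and 246 in replicates 1, 2 and 3. The next, beside mir-4985 at the start of Fatp3, a fatty acid transport protein gene, ranked 644, with 752, 571 and 716 in the replicates. The summit beside mir-9374 lay 60 bp from a start of Hr39, a nuclear receptor gene, and ranked 771, with 606, 747 and 1097 in the replicates. None of the 3 ranked below 1097 in any replicate.

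Several microRNAs with a known function were among the 27. Beside mir-14, which restrains cell death, the summit ranked 899 (642, 1157 and 1024 in replicates 1, 2 and 3). Beside mir-8, which acts on growth and body size, it ranked 1038 (796, 983 and 1644). These 2 summits lay at the starts of the microRNAs' own non-coding hosts, 864 and 721 bp upstream of the hairpins. Beside mir-92a, in the coding gene jigr1, the summit ranked 1381 (2158, 1364 and 1145), and beside mir-282 it ranked 1458 (1827, 1504 and 926). At mir-10, between Hox genes, the summit 370 bp upstream of the hairpin was weak, rank 3739 with 5464, 3591 and 4320 in the replicates. At mir-ban, which promotes growth and blocks cell death, it was weaker still, rank 5392, and only replicate 2 had it among its 5464 strongest, with 10298, 2988 and 16666 in replicates 1, 2 and 3. Just outside the 1 kb limit were mir-2493 at 1010 bp and mir-967 at 1102 bp, and just inside it mir-279 at 910 bp and mir-14 at 864 bp.

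**Figure D3:**
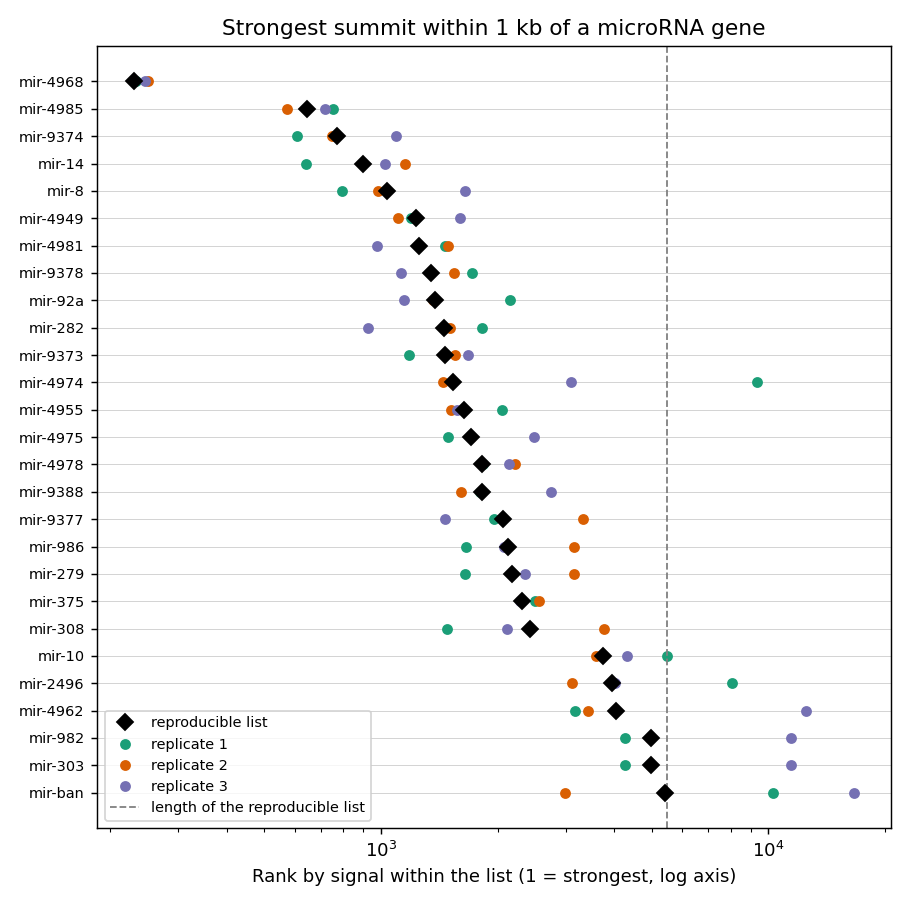
Rank by signal (log axis, 1 is the strongest) of the strongest reproducible summit within 1 kb of each of the 27 microRNA genes, ordered from strong (top) to weak. Diamonds are the reproducible list, coloured points the matching summit in each replicate's 30000 peaks and the dashed line rank 5464; mir-4968 at the top ranks 230, and the replicate points of mir-4974 (1450 to 9330) and mir-ban (2988 to 16666) spread widely.

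The hairpins were then sorted by the gene they lie in. Of the 262 genes, 136 lay inside a protein-coding gene on the same strand, 100 of them outside its exons and 36 overlapping an exon. A further 46 lay in a non-coding but no coding gene of the same strand, 5 of them also opposite a protein-coding gene. Another 25 lay only opposite a protein-coding gene, and 55 in neither. Within 1 kb of the hairpin the shares were 14 of 136 in coding hosts, 7 of 46 in non-coding hosts, 1 of 25 opposite a coding gene and 5 of 55 without a host, and within 10 kb they were 74, 26, 9 and 30 genes. These counts include hosts of very different length.

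At the start of the protein-coding host, in contrast, summits were common. A reproducible summit lay within 1 kb of a start of the host for 73 of the 136 microRNA genes (53.7%), with 74, 76 and 73 in replicates 1, 2 and 3, or 54.7% ± 1.12 (SD, n = 3). Of all protein-coding genes 25.5% had such a summit, and 27.2%, 24.5% and 26.5% in the 3 replicates. Such a summit lay within 1 kb of the hairpin in 11 of the 73 genes and within 10 kb in 44, and in 29 genes every such summit lay farther away. The strongest summit at each host's starts was a median of 8515 bp and at most 158979 bp from the hairpin. In 8 of the 73 genes that summit was nearer to a start of another gene than to one of the host. Counted once each, 63 of 128 hosts (49.2%) had a start summit, against 25.3% of other protein-coding genes.

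The hosts were long genes, with a median of 14094.5 bp against 2147 bp for other protein-coding genes, and long genes more often had a start summit whether or not they held a microRNA. Among genes under 5 kb, 5 of 41 hosts (12.2%) and 16.2% of 10420 other genes had one. From 5 kb to under 20 kb it was 22 of 39 hosts (56.4%) and 45.7% of 2432 other genes. At 20 kb and over it was 36 of 48 hosts (75%) and 72.3% of 965 other genes. Over the 3 replicates the share was 16.3% ± 1.41 for hosts and 16.9% ± 1.54 for other genes under 5 kb, 55.6% ± 1.48 and 46.3% ± 1.72 in the middle class, and 76.4% ± 1.203 and 70.2% ± 2.67 in the long class. These SDs measure the spread between replicates and not the small number of hosts. Hosts exceeded other genes by 23.9 percentage points over all lengths in the reproducible list, but by 10.7 in the middle class and 2.67 in the long one, and were below them in the short one. In the middle class the hosts were still the longer genes, with a median of 12251 bp against 8254.5 bp. In that class, as over all lengths, hosts also had a median of 2 annotated starts against 1, and a summit at any start counts. The medians were equal in the short and the long class. The part of the number of starts in the difference was not tested.

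**Figure D4:**
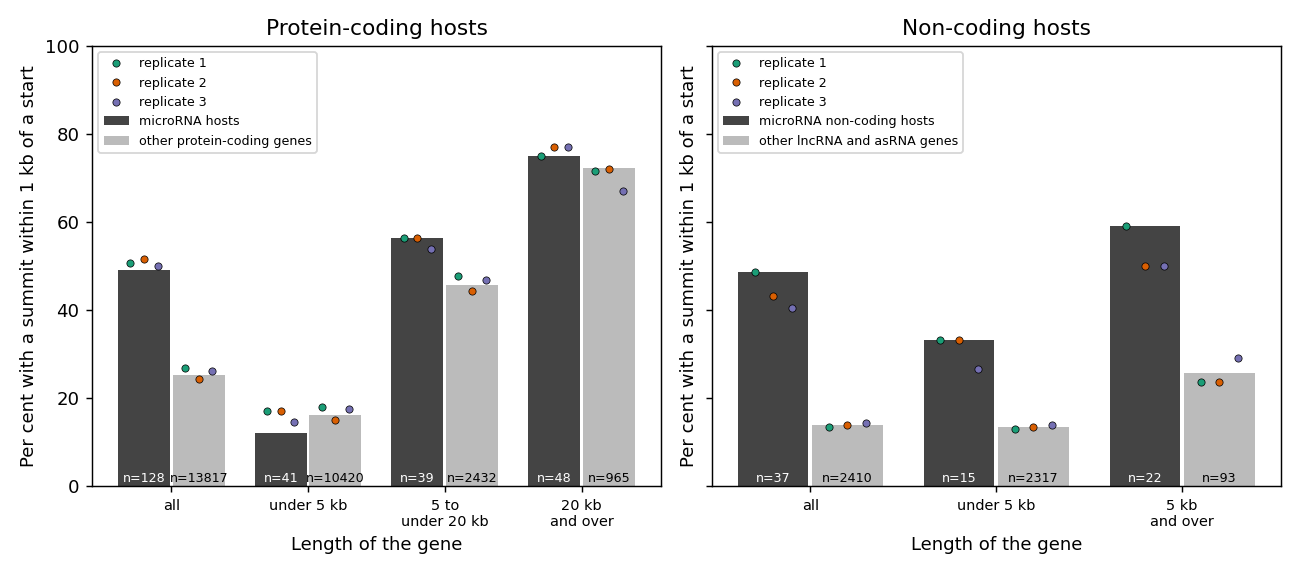
Per cent of genes with a summit within 1 kb of one of their starts, for microRNA hosts (dark) left of other genes of the same kind (grey), over all lengths and by gene length, with protein-coding genes in the left panel and long non-coding or antisense RNA genes in the right. Bars are the reproducible list and points the 3 replicates; coding hosts of 20 kb and over stand at 75% beside 72.3% of other genes, non-coding hosts of 5 kb and over at 59.1% beside 25.8%.

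Several of these coding host starts were among the strongest peaks of the whole list, and most were far from the hairpin. The start of kuz, a membrane metalloprotease gene of the Notch pathway and host of mir-2489 (chr2L:13609974-13610068, plus strand, overlapping an exon), had a summit of rank 9, with 8, 10 and 13 in replicates 1, 2 and 3. It lay 59777 bp from the hairpin. The start of SKIP, which hosts mir-1010 (chr3R:22292879-22292949, plus strand, outside the exons), ranked 24, with 23, 24 and 32 in the replicates, at the maximum distance of 158979 bp. Ranks this close in all 3 replicates place these summits at the top of every library. The start of Glut4EF around mir-9371 ranked 95, with 90, 99 and 80 in the replicates. The start of sty, which encodes the receptor tyrosine kinase antagonist Sprouty and hosts mir-2282, ranked 171 (145, 204 and 187) and lay 5666 bp from the hairpin.

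Hosts of microRNAs with studied functions lay lower in the list. The spi gene, which encodes an EGF receptor ligand, hosts mir-2a-1, mir-2a-2 and mir-2b-2, and its start summit ranked 1046 (1032, 1369 and 636 in replicates 1, 2 and 3). Btk, a tyrosine kinase gene around mir-2b-1, ranked 657 (747, 663 and 571). E2f1, a cell cycle transcription factor gene, hosts mir-11 and mir-998, and its start ranked 2031 (1928, 1872 and 2801). A much stronger summit of rank 12 lay 3305 bp downstream of the 5′ end of the mir-11 hairpin, nearest to a start of InR, the insulin receptor gene, and ranked 12, 9 and 18 in the replicates. The start of SREBP, a regulator of lipid synthesis that hosts mir-33, ranked 1577 (2209, 1354 and 1538), on a summit nearer to a start of CG42637, and that of HnRNP-K around mir-7 ranked 3495 (3968, 3878 and 3972). The grp start, shared by mir-9b, mir-9c, mir-79 and mir-306, ranked 2520 but varied between libraries, with 1957, 5368 and 4846, and its summit lay 63 bp from a start of another gene, squ.

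Starts of non-coding hosts were looked at after the data had been seen. Of 51 microRNA genes inside a same-strand long non-coding or antisense RNA gene, 22 (43.1%) had a reproducible summit within 1 kb of the host's start, with 22, 21 and 20 in replicates 1, 2 and 3, or 41.2% ± 1.96 (SD, n = 3). Such a summit was found at 14.4% of all long non-coding and antisense RNA genes. Counted once each, 18 of 37 hosts (48.6%) had one, against 13.9% of 2410 other genes of this kind. By length the counts were 13 of 22 hosts (59.1%) against 25.8% of 93 others from 5 kb up and 5 of 15 hosts (33.3%) against 13.4% of 2317 others under 5 kb. The replicate shares were 53.0% ± 5.25 in hosts and 25.4% ± 3.10 in others in the longer class, and 31.1% ± 3.85 and 13.5% ± 0.457 in the shorter. Taking the strongest host start summit of each microRNA gene, there were 17 distinct summits, and 16 of them lay more than 1 kb from any protein-coding start. Hosts were the longer genes within each class too, with medians of 13076.5 bp in hosts and 9247 bp in others from 5 kb up, and 2441 and 695 bp under 5 kb. The part of length in the difference was therefore not removed.

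Of the non-coding hosts, 5 had a start summit ranked between 208 and 245, a narrow band near the top of the list. The host of mir-184, known from the female germline and early embryo, ranked 208, with 197, 298 and 159 in replicates 1, 2 and 3. The host of mir-bft (also called mir-263a), which protects sensory bristle cells from death, ranked 217, with 211, 268 and 180. The shared host of mir-279 and mir-996, which limit the formation of carbon dioxide-sensing neurons, ranked 223, with 332, 256 and 128. None of these 5 summits ranked below 332 in any replicate. The host of mir-276a, which acts in olfactory learning, ranked 229, with 232, 199 and 284. The host of mir-ban ranked 245, with 251, 279 and 185. All 5 summits lay 13 to 86 bp from an annotated host start and 1109 to 17541 bp from the nearest of their hairpins, so none of these summits was within 1 kb of a hairpin.

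The genome around 4 of these 5 summits is printed below, as examples of strong peaks at the starts of non-coding microRNA hosts. Each stretch is 151 bases of the Release 6 genome (RefSeq, dm6), centred on the summit, 5′ to 3′ on the strand of the host. Capitals mark GAGAG (or CTCTC), the core recognised by the GAGA factor Trl, and GCCAT (or ATGGC), the core recognised by the Polycomb recruiter Pho.
mir-bft host start (chr2L:11970969-11971119, - strand): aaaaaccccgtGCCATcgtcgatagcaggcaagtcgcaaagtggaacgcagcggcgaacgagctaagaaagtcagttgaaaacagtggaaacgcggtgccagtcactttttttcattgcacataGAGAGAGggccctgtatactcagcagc
mir-279 and mir-996 host start (chr3R:29214401-29214551, + strand): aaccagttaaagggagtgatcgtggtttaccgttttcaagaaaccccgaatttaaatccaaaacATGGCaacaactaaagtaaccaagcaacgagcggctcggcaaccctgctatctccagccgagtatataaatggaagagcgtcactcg
mir-276a host start (chr3L:10363966-10364116, + strand): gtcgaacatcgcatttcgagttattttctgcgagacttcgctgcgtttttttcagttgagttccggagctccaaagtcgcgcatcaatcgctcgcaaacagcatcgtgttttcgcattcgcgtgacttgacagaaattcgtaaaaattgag
mir-ban host start (chr3L:628408-628558, + strand): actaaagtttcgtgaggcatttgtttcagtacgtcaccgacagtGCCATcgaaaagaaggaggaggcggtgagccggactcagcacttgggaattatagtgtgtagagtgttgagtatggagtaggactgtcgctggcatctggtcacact
Of these 4 stretches, 3 held GCCAT, 1 held GAGAG and that of mir-276a held neither. Short words such as these occur often, and no match says only that these letters are not in this window.

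Over 301 bp around the summits, on either strand, each word was counted at the microRNA summits and at all peaks. GAGAG was found at 9 of 17 distinct summits at non-coding host starts (52.9%), 28 of 62 at coding host starts (45.2%) and 12 of 26 within 1 kb of a hairpin (46.2%), against 47.5% of all 5464 reproducible peaks. GCCAT was found at 8 of 17 (47.1%), 23 of 62 (37.1%) and 12 of 26 (46.2%) of the same summits, against 38.9% of all peaks. The microRNA peaks are part of the total in each case.

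Further down the list, the host of mir-277 and mir-34, of which mir-34 is known from the ageing brain, ranked 671, with 664, 629 and 826 in replicates 1, 2 and 3. The host start of mir-10 ranked 1209, with 1095, 1253 and 1582, and lay 6753 bp upstream of the hairpin, far stronger than the summit of rank 3739 beside the hairpin itself. At mir-ban the host start ranked 245 and the summit near the hairpin 5392. These 2 genes were picked after their values were seen. The host of mir-279 had 2 summits at its start, the one of rank 223 and one of rank 2175 that lies within 1 kb of the hairpin.

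Some of the weaker host starts varied widely between libraries. The host of mir-4951, the heat shock RNA gene Hsromega, ranked 3210 (4719, 2292 and 11903 in replicates 1, 2 and 3). The host of mir-13a, mir-13b-1 and mir-2c ranked 3104 (2521, 3205 and 5291). The host of mir-9a, which guards the number of sensory organ precursors, ranked 3779 (4536, 3002 and 6891), and that of mir-124, a microRNA of the nervous system, ranked 5462 (7466, 4459 and 11405), near the end of the list. For mir-124 only replicate 2 had the summit among its 5464 strongest.

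**Figure D5:**
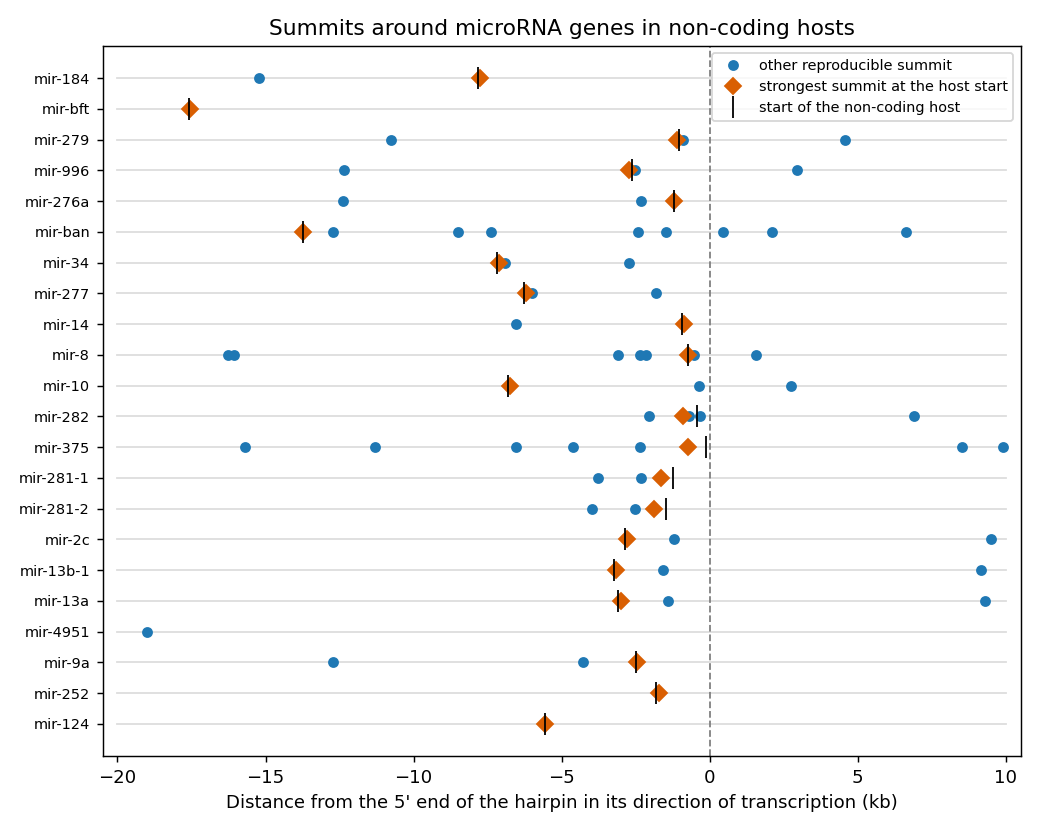
Reproducible summits around the 22 microRNA genes with a summit at the start of a non-coding host, drawn from 20 kb upstream to 10 kb downstream of the hairpin's 5′ end (dashed line) in its direction of transcription, ordered from the strongest host start (top) to the weakest. Diamonds mark the strongest summit at the host start, bars the start itself and circles other summits. The diamonds lie at or within 1 kb of a host start, that of mir-375 583 bp from it. They reach as far as 17541 bp from the hairpin (mir-bft), and the diamond of mir-4951 (20069 bp) is beyond the left edge.

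Groups of microRNAs with a common genomic place or known role differed in how many had such peaks. Of the 11 microRNAs listed for neural and sensory organ roles, 8 (72.7%) had a summit within 10 kb of the hairpin, against 53.1% of all microRNA genes. Counted separately, 7 had a summit at a non-coding host start and 1 at a coding host start. The 7 were mir-bft, mir-279, mir-996, mir-276a, mir-34, mir-9a and mir-124, with the ranks given above. Of these, mir-279 and mir-996 share 1 host and its summit, so they are not independent. The coding host was that of mir-7, which acts in photoreceptor and sensory organ fate, while mir-276b and mir-263b had no summit within 10 kb and none at a host start. The remaining member, mir-315, had a summit 6623 bp away of rank 2658 (3107, 2320 and 3312), and mir-bft had none within 10 kb. The lists were chosen with earlier results of these data known, and some members could be placed otherwise. Thus mir-bft, which protects bristle cells from death, was listed as neural. The germline and embryo microRNA mir-184 was listed under growth and cell death. Of the 6 microRNAs listed for growth and cell death, all 6 had a host start summit. These were mir-184, mir-ban, mir-14 and mir-8 in non-coding hosts and mir-278 (host CG42524, rank 629, with 561, 727 and 555) and mir-11 in coding ones. All 6 lie in a host, 2 in coding and 4 in non-coding ones, and of the 11 neural members 2 and 9 do. Over all microRNA genes in such hosts, 73 of 136 (53.7%) had a coding host start summit. A non-coding host start summit was found for 22 of 51 (43.1%). Of all 262 microRNA genes, 99 had either of these or a summit within 1 kb.

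The K box family, which shares the seed AUCACAG and pairs with the K box of Notch target transcripts, had 13 members at 7 loci. Of these 9 had a host start summit, at spi, Btk, E2f1, RpS23 and the host of mir-13a. It was 6 of 7 members in coding hosts and 3 of 6 in non-coding ones. Over all microRNA genes in such hosts the shares were 53.7% and 43.1%. Members in 1 host share 1 summit, so the 9 rest on 5 starts. The remaining 4 were mir-13b-2, in the chaperonin gene CCT2, and the 3 copies of mir-6 in the early zygotic cluster.

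The Hox complexes hold 4 microRNA genes, and each of the 4 had a summit within 10 kb, beside 53.1% of all microRNA genes and 60.4% of other genes, but only mir-10 had one within 1 kb or at a host start. For mir-iab-4 and mir-iab-8, the sense and antisense hairpins of the bithorax complex that target Hox transcripts, the summit lay 8746 bp away and ranked 3804 (4499, 3651 and 4531 in replicates 1, 2 and 3). For mir-993 it lay 3792 bp away and ranked 3686 (4653, 2917 and 5822). These summits of mir-iab-4, mir-iab-8 and mir-993 are in the weaker part of the list.

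In other well-known groups no summit lay within 1 kb or at a host start. The 3 microRNAs of the let-7 complex (mir-100, mir-let7 and mir-125), which time the larval to adult transition, had no summit within 1 kb and none at the start of their shared host. Their nearest summit, 5257 to 6148 bp away, ranked 2734 (2982, 3707 and 2137). It was not at a gene start, the nearest annotated start, of CG10283, being 6757 bp from it. Of the 2 muscle microRNAs, mir-1 had a summit 7442 bp away of rank 3190 (2519, 3296 and 5142) and mir-133 had none within 10 kb. The 8 genes of the mir-309 to mir-6 cluster, expressed at the onset of zygotic transcription and known to clear maternal messages, lie on chromosome arm 2R within 1059 bp and had no reproducible summit within 10 kb.

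Testis-expressed clusters and mirtrons give 2 groups with a different structure. Of 19 microRNA genes in 3 testis clusters, none lies in a host and 8 (42.1%) had a summit within 10 kb, close to the 42.4% of genome positions and below the 53.1% of all microRNA genes. Those 8 rest on 2 summits, of rank 3830 (4038, 3385 and 5638) and 4965 (4255, 4954 and 11437), and the summit of rank 4965, at the start of CG3626, gave mir-303 and mir-982 their place among the 27. Mirtrons are hairpins made from a spliced intron rather than by Drosha. The 14 listed here, mir-1003 to mir-1016, lie in coding hosts, and 3 of the 14 hosts had a start summit, beside 25.5% of all protein-coding genes. The 3 hosts were SKIP (mir-1010), Atet (mir-1005, rank 225, with 259, 171 and 261) and CG3860 (mir-1009, rank 3508, with 3924, 4420 and 4457). For the other 122 microRNA genes in coding hosts the count was 70, and these may include mirtrons outside the list. Host length, with which the share of start summits rose, was not compared between mirtrons and these genes.

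The genes that make and use microRNAs and small interfering RNAs were looked at in the same way. Of 14 such genes 3 had a reproducible summit within 1 kb of a start, against the 25.5% of all protein-coding genes given above. Tailor, which adds uridines to hairpin precursors, ranked 606, with 577, 636 and 719 in replicates 1, 2 and 3. The summit at r2d2, a Dicer-2 partner in small interfering RNA loading, ranked 1616, with 1616, 1757 and 1334. AGO2, the Argonaute of small interfering RNAs, ranked 3397, with 4813, 3584 and 2761. No reproducible summit lay at a start of drosha, pasha, Ranbp21, Dcr-1, loqs, AGO1 or gw, the core of the microRNA pathway, nor at Dcr-2, Hen1, Nbr or Ars2. At gw, which encodes the silencing effector GW182, replicate 3 alone had a summit among its 5464 strongest, at rank 2688.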

How the data were processed

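Peak lists on dm6 of 3 biological replicates, a list of the pooled replicates and the reproducible list were used as deposited. Per the deposited notes, replicate and pooled lists are permissive calls against a control alignment, and the reproducible list was thresholded by irreproducible discovery rate. The aligner is not given in the sources used here, nor is the peak caller. Chromatin had been sonicated to 200 to 800 bp, per the labels. The signal value in each list was assigned by the authors' caller and was used only to rank peaks within a list. No read counts were given, so depth and counting error are unknown.

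Summits were set against Ensembl release 115 genes with Python 3.11.15, pandas 2.3.3 and numpy 2.4.6. The annotation's 485 separate entries for mature microRNAs and all transposon insertions were left out. A host is a gene that spans the hairpin on the same strand. For replicate values the 5464 strongest peaks of each replicate were taken, and SDs are over these replicates. There is 1 group, so conditions could not be compared, and counts are set beside those of other genes. Counting was checked on simulated peaks.

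The microRNA genes, lists and pathway genes were chosen with earlier results of these data known. Named genes were the strongest summits within 1 kb, the strongest host starts and the members of 9 lists; 1 strong coding host start is not reported here. Non-coding hosts, length classes and further examples were added after the data were seen. Alternatives were other distances, replicates, peak numbers, strands and loci.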

Additional observations from a re-analysis of the deposited data

How the results depend on the processing

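Of 27 microRNA genes with a summit within 1 kb, 17 had one within 500 bp and 43 within 2000 bp, and 11 had one beyond 1 kb from every protein-coding start, a setting chosen after seeing the data. In the whole permissive lists, which hold 30000 peaks and so weaker ones, the count was 92, 85 and 87 in replicates 1, 2 and 3 and 83 in the pooled list. Within 10 kb (139 genes) it was 238, 233, 234 and 223 in those lists and 90 with the stronger 2732 peaks. For non-coding host starts (22 genes) it was 34 in replicate 1, 38 in replicate 3 and 35 in the pooled list. Coding host starts (73 genes) stayed within 1.5 times under all 18 alternatives run, at 63 with each host counted once and 92 with hosts on either strand.

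Keeping peaks matched among the strongest of the replicates left after omitting each in turn gave 21 to 24 genes within 1 kb, 113 to 126 within 10 kb, 68 to 71 at coding host starts and 18 to 20 at non-coding ones. No paired analysis was possible because the samples form 1 group. The spread of 3 replicates, unknown depth and the annotated starts limit the precision of every count.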

Other observations

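Of the 262 microRNA genes, 163 had neither a summit within 1 kb nor one at the start of a coding or non-coding host. The microRNA gene with the most reproducible summits within 10 kb was mir-4943, inside CG5953, with 8, and mir-ban had 7. Some strong summits within 10 kb of a hairpin lay at unrelated starts. Beside mir-14, the summit of rank 133 (193, 222 and 39 in replicates 1, 2 and 3) lay upstream of the hairpin, nearest to a start of CG1888. Near mir-375, a summit of rank 186 (185, 200 and 199) was nearest to a start of drongo, and near mir-989 one of rank 132 (112, 140 and 170) was nearest to Prosap.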
